A study of Mus musculus with 22 samples.

Results

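The mRNAs of the 5 neuronal intermediate filament genes Nefl, Nefm, Nefh, Ina and Prph were examined in mouse spinal cord, in aging and in a model of amyotrophic lateral sclerosis (ALS). The genes were taken by name, and they are 5 of the 21995 genes in the deposited tables. All 5 were abundant enough to be tested in each comparison. RNA-seq was performed on whole spinal cords of C57BL/6 mice, with 1 library per mouse. The aging comparison set 8 old wild-type males at 18–24 months against 8 young wild-type males at 3–4 months, all made into libraries with Roche KAPA HyperPrep. The ALS comparison set 3 SOD1-G93A mice at 5–6 months against 3 wild-type control mice of the same age, each group with 2 females and 1 male, prepared with the Illumina TruSeq kit. SOD1-G93A mice carry a high-copy transgene of mutant human SOD1 and keep their own Sod1 gene, and they develop motor neuron disease. Kit and experiment coincide, so expression levels were compared within each experiment and never across them. The labels do not give the sex of each library.

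Neuronal intermediate filaments are built from subunits that share a coiled-coil rod and differ in their tails. NEFL, the light neurofilament subunit, is the core on which NEFM and NEFH, the medium and heavy subunits with long phosphorylated tails, assemble, and together they fill the shaft of large axons and set their calibre. Alpha-internexin, encoded by Ina, joins them in central axons, whereas peripherin, encoded by Prph, is typical of neurons with axons in the periphery, which include motor neurons and sensory ganglion neurons. Neurofilament proteins accumulate in motor neurons in ALS, and their release into blood and spinal fluid is used as a sign of axonal injury.

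The subunits are related in sequence, which bears on whether reads could be assigned to the wrong member. In the GENCODE M21 transcripts of GRCm38, few runs of 31 bases were shared between members of the family, except between Nefl and Nefm, which overlap in the genome. Nefh-201 shared none with another gene, Nefm-201 shared 5 with Prph, and Prph-202 shared 11 of its 1833 with other genes, of which 6 were in Des and 5 in Nefm.

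Nefl and Nefm are neighbours on mouse chromosome 14. Nefl (ENSMUSG00000022055) lies on the plus strand at chr14:68083863-68089095, and Nefm (ENSMUSG00000022054) lies on the minus strand at chr14:68082590-68124846, which encloses Nefl because of a longer Nefm transcript. That transcript, Nefm-202, overlaps 1108 exonic bases of Nefl-201 on the opposite strand and accounts for the 1078 of 3350 runs of 31 bases that Nefl-201 shared with another gene. The strand setting of the counting is not given in the sources used here, so Nefl reads from those bases could have been split between both genes. The ratio of Nefm to Nefl length implied by the counts and the FPKM values was 0.986 in the median over the 22 libraries, which is the ratio given by Nefm-201, against 1.09 for Nefm-202. Nefh (ENSMUSG00000020396) lies at chr11:4938754-4948064 on the minus strand. Ina (ENSMUSG00000034336) lies at chr19:47014698-47025327 on the plus strand and shares 456 exonic bases with Nt5c2 on the opposite strand. Prph (ENSMUSG00000023484) lies at chr15:99055174-99058978 on the plus strand.

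RefSeq promoters of GRCm38.p6 were found for 2 members, Ina and Prph, which are the members that changed least. They are shown, 250 bases up to the transcript start on the plus strand, to set these members side by side. Capitals mark TATAAA and GGGCGG, the latter also as its reverse complement.
Ina: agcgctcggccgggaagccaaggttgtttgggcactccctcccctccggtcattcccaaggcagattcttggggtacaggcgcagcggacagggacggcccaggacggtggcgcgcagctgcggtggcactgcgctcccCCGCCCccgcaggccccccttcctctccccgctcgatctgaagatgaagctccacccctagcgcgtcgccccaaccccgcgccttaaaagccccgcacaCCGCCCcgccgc
Prph: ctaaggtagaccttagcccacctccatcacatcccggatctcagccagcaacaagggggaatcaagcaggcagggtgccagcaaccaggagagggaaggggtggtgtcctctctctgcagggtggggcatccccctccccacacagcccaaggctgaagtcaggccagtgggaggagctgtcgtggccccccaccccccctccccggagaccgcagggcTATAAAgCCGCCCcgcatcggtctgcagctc
The Ina sequence lies at chr19:47014431-47014680 and held 2 GGGCGG and no TATAAA, with a GC content of 70.8%. The Prph sequence lies at chr15:99054924-99055173 and held 1 TATAAA, 31 bases before the start, and 1 GGGCGG, with a GC content of 65.2%. Over 32851 mouse promoters of the same length, both strands searched, 12.4% held TATAAA and 32.7% held GGGCGG. Neither sequence held CCAAT or CACGTG, which were found in 33.8% and 6.02% of promoters. These matches describe the letters only.

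The young libraries held 5078092 to 9358055 counts, the old 5664869 to 9145600, the control 10693060 to 13219797 and the SOD1-G93A libraries 9675610 to 11872431. Counts of the members ran from 308 for Prph to 32525 for Nefl. Markers of the labelled tissue were present in every library. The summed level of oligodendrocyte markers was 24668 to 31205 CPM (counts scaled to library size with TMM factors) over all 22 libraries, and that of pan-neuronal markers was 5419 to 9941 CPM. Mouse Sod1 was at 160 ± 6.56 CPM (SD, n = 3) in control mice and 310 ± 22.03 CPM (n = 3) in SOD1-G93A mice (log2 fold change 0.95, adjusted p = 0.000241, edgeR's quasi-likelihood test), so the libraries went with their labels. Reads of the human transgene were not told apart from those of the mouse gene. Libraries are numbered below by their order in the deposited tables. Old library 6 had 15.1% of its counts on its 10 most abundant genes, against 8.01% to 11.9% in the other old libraries. Its TMM factor was 0.920, the lowest of the old libraries, and it had the highest TMM-scaled CPM of Nefl, Nefm, Nefh and Ina among old mice.

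Per length, the light and medium subunits were the most abundant members in all groups. In young mice, Nefm was at 547 ± 35.4 FPKM (SD, n = 8) and Nefl at 533 ± 18.8 FPKM, ranks 57 and 59 among all genes, and their ranges overlapped. Nefh followed at 247 ± 19.2 FPKM, Ina at 104 ± 4.68 FPKM and Prph at 33.9 ± 2.42 FPKM, with no overlap between neighbours in that order. In old mice, Nefl was at 460 ± 22.8 FPKM and Nefm at 413 ± 45.6 FPKM, again with overlapping ranges. Nefh was at 178 ± 34.5 FPKM, Ina at 92.7 ± 6.99 FPKM and Prph at 34.0 ± 3.99 FPKM, each apart from its neighbours in the order.

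In control mice of the ALS experiment, Nefl was highest at 678 ± 33.0 FPKM (n = 3), rank 30 among all genes. Nefm was at 573 ± 35.8, Nefh at 299 ± 16.5, Ina at 112 ± 1.49 and Prph at 35.6 ± 3.79 FPKM, and no neighbours overlapped. In SOD1-G93A mice, Nefl was at 271 ± 83.4 FPKM, rank 176, and overlapped Nefm at 223 ± 63.3 FPKM. Nefh at 108 ± 31.3 FPKM overlapped Ina at 63.4 ± 19.9 FPKM, and Prph was lowest at 23.2 ± 2.69 FPKM. The order of the means was the same in control and SOD1-G93A mice.

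The aging comparison asked which of these mRNAs differ between old and young spinal cord. The 3 neurofilament triplet genes were lower in old mice, by 13.3% for Nefl, 24.1% for Nefm and 27.6% for Nefh, whereas Prph averaged 62.95 ± 3.96 CPM in young and 63.18 ± 6.37 CPM in old mice (SD, n = 8 and 8). Ina was 10.5% lower and just missed the threshold. So 3 of 5 members fell, where 12.9% of the 13647 genes tested were called lower at an adjusted p under 0.05 (edgeR's quasi-likelihood test, Benjamini-Hochberg over all genes tested). None fell beyond a log2 fold change of -1, the additional limit used in the study, which 0.044% of genes did. On the TMM-scaled CPM, the old and young mice overlapped for all 5 members, where 1.66% of genes were lower in every old mouse than in every young mouse. On the deposited FPKM scale, Nefl and Nefm did not overlap, with old mice up to 488 and 471 FPKM and young mice from 510 and 501 FPKM, whereas Nefh, Ina and Prph overlapped. The share of all genes without overlap on the FPKM scale was not computed. In a bulk sample of whole cord, fewer cells of a type and less RNA per cell cannot be told apart.

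Nefl ranged from 1828 to 1995 CPM in young mice, with a median of 1880, and from 1503 to 1859 CPM in old mice, with a median of 1635. Of the 8 old mice, 7 were below the lowest young mouse, and old library 6 lay inside the young range on this scale. In FPKM, old library 6 was at 468, below all young mice. The fitted log2 fold change was -0.21 (SE 0.05, adjusted p = 0.00165).

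Nefm, which carries one of the long phosphorylated tails, ranged from 1732 to 2134 CPM in young mice (median 1882) and from 1134 to 1746 CPM in old mice (median 1472). Again 7 of the 8 old mice were below the lowest young mouse, and the groups met only at old library 6 on this scale. In FPKM, old library 6 was at 446, below all young mice. Nefm fell by 0.40 on the log2 scale (SE 0.07, adjusted p = 0.00015).

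Nefh, the heavy subunit and the last to appear in maturing axons, ranged from 937 to 1204 CPM in young mice (median 1016) and from 496 to 1064 CPM in old mice (median 731). The old mice were spread widely, with old library 8 lowest and old library 6 inside the young range. Nefh fell by 0.47 on the log2 scale (SE 0.10, adjusted p = 0.00154), the largest change of the 5 members in aging.

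Ina ranged from 329 to 380 CPM in young mice (median 364) and from 297 to 411 CPM in old mice (median 306). Old library 6, at 411 CPM, was above every young mouse, while 6 of the 8 old mice were below all of them. Its log2 fold change was -0.16 (SE 0.06, adjusted p = 0.0503), and without old library 6 it was -0.22 (adjusted p = 0.000336). Leaving out young library 5, 7 or 8 or old library 3 also took Ina past the threshold, with log2 fold changes of -0.18, -0.18, -0.18 and -0.17.

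Prph, the peripherin gene, ranged from 55.6 to 67.0 CPM in young mice (median 63.2) and from 55.7 to 74.9 CPM in old mice (median 64.5). Neither group stood above the other, and the log2 fold change was 0.01 (SE 0.06, adjusted p = 0.961).

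**Figure D1:**
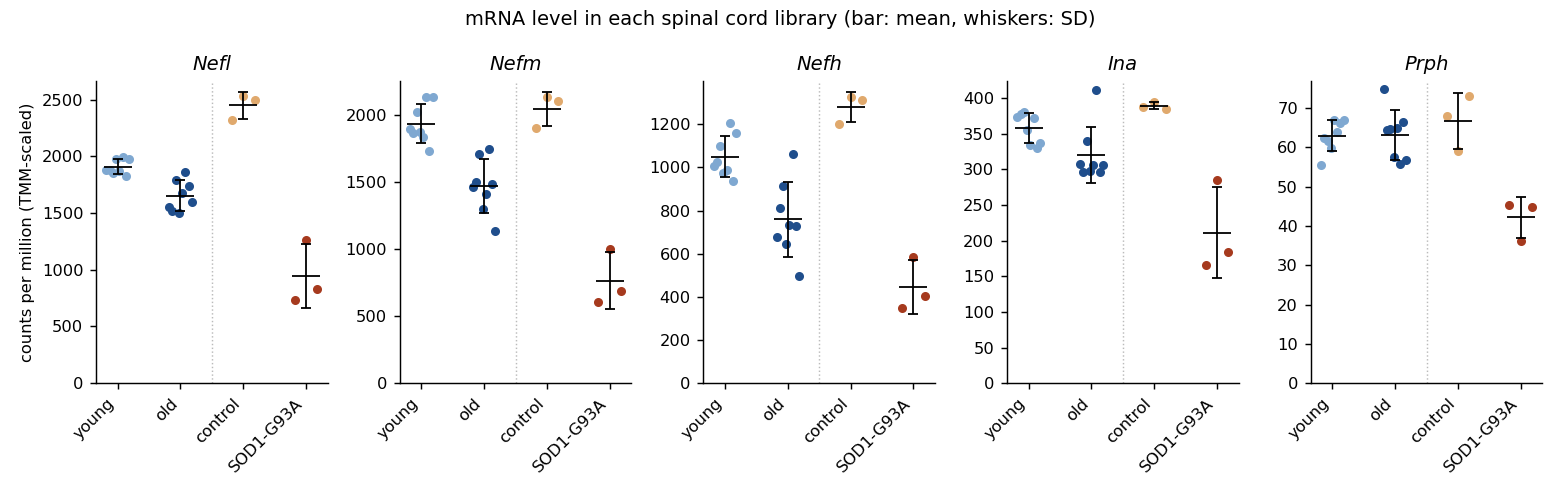
CPM of each filament gene (y axis, linear from 0) in young, old, control and SOD1-G93A spinal cords (x axis). Points are libraries, bars are group means and whiskers are SDs, with n = 8, 8, 3 and 3, and the dotted line separates experiments made with different kits. The SOD1-G93A libraries lie below all control libraries for all 5 genes, and old and young libraries overlap for all 5.

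The ALS comparison asked the same of SOD1-G93A and control mice. All 5 members were lower in SOD1-G93A mice, by 61.6% for Nefl, 62.6% for Nefm, 65.2% for Nefh, 45.7% for Ina and 36.7% for Prph. All 5 of 5 passed the test, where 15.5% of the 14386 genes tested were called lower. Only the 3 triplet genes fell beyond a log2 fold change of -1, which 1.2% of genes did. The groups did not overlap for any member, as was so, in the lower direction, for 24.7% of all genes tested.

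Nefl was at 2316, 2535 and 2499 CPM in control mice and at 733, 1261 and 831 CPM in SOD1-G93A mice. The SOD1-G93A mice were all far below the controls, with library 2 of that group nearest to them. The log2 fold change was -1.38 (SE 0.19, adjusted p = 0.00125).

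Nefm was at 1900, 2132 and 2102 CPM in control mice and at 606, 1002 and 687 CPM in SOD1-G93A mice, in the same order of mice as Nefl. Nefm fell by 1.42 on the log2 scale (SE 0.18, adjusted p = 0.000817).

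Nefh was at 1199, 1324 and 1314 CPM in control mice and at 348, 585 and 403 CPM in SOD1-G93A mice, where library 2 was again the highest. The log2 fold change was -1.52 (SE 0.18, adjusted p = 0.000615).

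Ina was at 387, 395 and 385 CPM in control mice, which were nearly equal, and at 165, 285 and 184 CPM in SOD1-G93A mice. Ina fell by 0.88 on the log2 scale (SE 0.18, adjusted p = 0.00766).

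Prph was at 68.0, 59.0 and 73.2 CPM in control mice and at 45.4, 36.3 and 44.9 CPM in SOD1-G93A mice. Here library 2 was the lowest of the SOD1-G93A mice, although it was the highest for the other 4 members. The log2 fold change was -0.66 (SE 0.12, adjusted p = 0.00458).

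SOD1-G93A library 2 also stood apart in other genes. Its pan-neuronal markers summed to 8190 CPM, against 5419 and 6221 CPM in the other SOD1-G93A mice and 9839 to 9941 CPM in control mice. Its microglia markers summed to 1606 CPM, against 3130 and 2438 CPM in the other SOD1-G93A mice and 384 to 470 CPM in control mice. Its motor neuron markers, at 312 CPM, lay between those of the other SOD1-G93A mice at 307 and 349 CPM, below 447 to 487 CPM in control mice. Without this library the log2 fold changes were -1.64 for Nefl, -1.66 for Nefm, -1.76 for Nefh and -1.15 for Ina, and that of Prph was smaller, at -0.56. All 5 members remained called whichever library was left out, where 715 of 14528 to 3172 of 14584 genes tested were called lower.

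The difference between the ALS change and the aging change was tested directly in a fit of all 22 libraries, in which each change lay within its own kit. The ALS change was the more negative for all 5 members, and the difference passed the test for 5 of 5, where 14.2% of 14502 genes tested had a difference called in that direction. It was -1.20 on the log2 scale for Nefl (SE 0.14, adjusted p = 5.19e-06), -1.05 for Nefm (SE 0.17, adjusted p = 7.08e-05) and -1.08 for Nefh (SE 0.22, adjusted p = 0.000619). For Ina it was -0.75 (SE 0.16, adjusted p = 0.001), and for Prph it was -0.69 (SE 0.12, adjusted p = 0.000196). Age, sex, kit and the number of mice also differed between the experiments and cannot be told apart from this difference. The fit used a single estimate of spread per gene for the aging and ALS libraries together. In CPM, the SD of Nefl was 281 in SOD1-G93A mice and 64.1 in young mice. For Nefl, Nefm and Ina the SE of the difference was below that of the ALS change alone (0.188, 0.178 and 0.183). These SEs and adjusted p may therefore understate the spread between ALS mice.

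**Figure D2:**
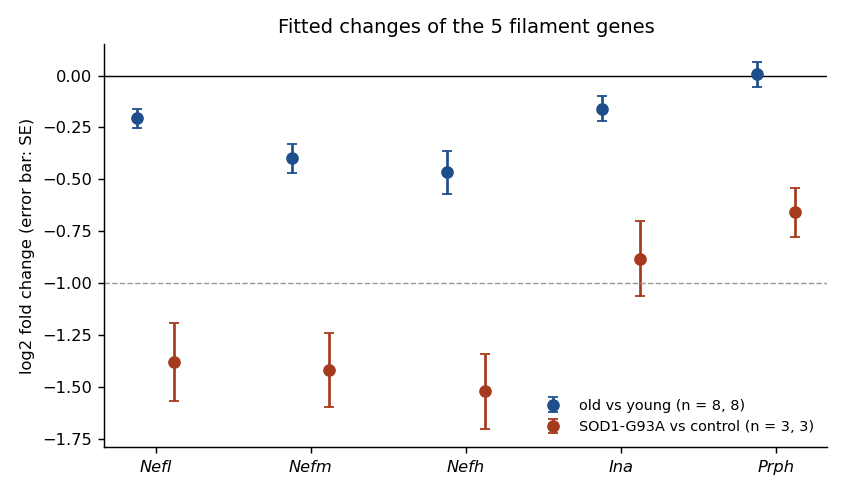
Fitted log2 fold change (y axis) of each filament gene (x axis) in old against young mice, in blue, and in SOD1-G93A against control mice, in red. Points are edgeR estimates, error bars are SEs and the dashed line marks -1, beyond which only Nefl, Nefm and Nefh in SOD1-G93A mice lie.

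Whether the members kept their proportions to each other was asked with the ratio of each to Nefl, the subunit with which the others assemble. In aging, the ratio of Nefm to Nefl was 1.01 in young and 0.883 in old mice as geometric means of CPM. This was a log2 difference of -0.20 (exact two-sided permutation test, n = 8 and 8, p = 0.00249, adjusted over the 4 ratios p = 0.00995), with 6 of 8 old mice below all young mice. The ratio of Nefh to Nefl was 0.548 in young and 0.450 in old mice, a log2 difference of -0.29 (exact permutation p = 0.00901, adjusted p = 0.018), with 5 of 8 old mice below all young mice. The medium and heavy subunits therefore fell by more than the light subunit in old mice.

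The ratio of Prph to Nefl moved the other way, from 0.0331 in young to 0.0383 in old mice (log2 difference 0.21, exact permutation p = 0.0168, adjusted p = 0.0224). The ratio of Ina to Nefl was 0.187 in young and 0.193 in old mice, and its log2 difference of 0.04 ± 0.10 (pooled SD) was within the spread between mice (exact permutation p = 0.404). Old library 8 had the lowest ratios of Nefm and Nefh to Nefl of all 16 mice. Left out singly, no library took a ratio across the threshold.

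In ALS, 3 mice against 3 cannot give a p below 0.1 in this test. How many of all genes would not overlap in a ratio to Nefl was not computed. The ratio of Nefm to Nefl was 0.834 in control and 0.816 in SOD1-G93A mice (log2 difference -0.03, exact permutation p = 0.3), and the groups overlapped. The ratio of Nefh to Nefl was 0.522 in control and 0.475 in SOD1-G93A mice (log2 difference -0.14, exact permutation p = 0.1), with no overlap. The ratio of Ina to Nefl was 0.159 in control and 0.224 in SOD1-G93A mice (log2 difference 0.50, exact permutation p = 0.1). Its 3 log2 values in SOD1-G93A mice, -2.15, -2.15 and -2.18, were close together and above those of control mice, -2.58, -2.68 and -2.70. This closeness included library 2, in which both mRNAs were higher than in the other SOD1-G93A mice. The ratio of Prph to Nefl was 0.0272 in control and 0.0460 in SOD1-G93A mice (log2 difference 0.76, exact permutation p = 0.3), but it overlapped because library 2 lay among the controls.

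**Figure D3:**
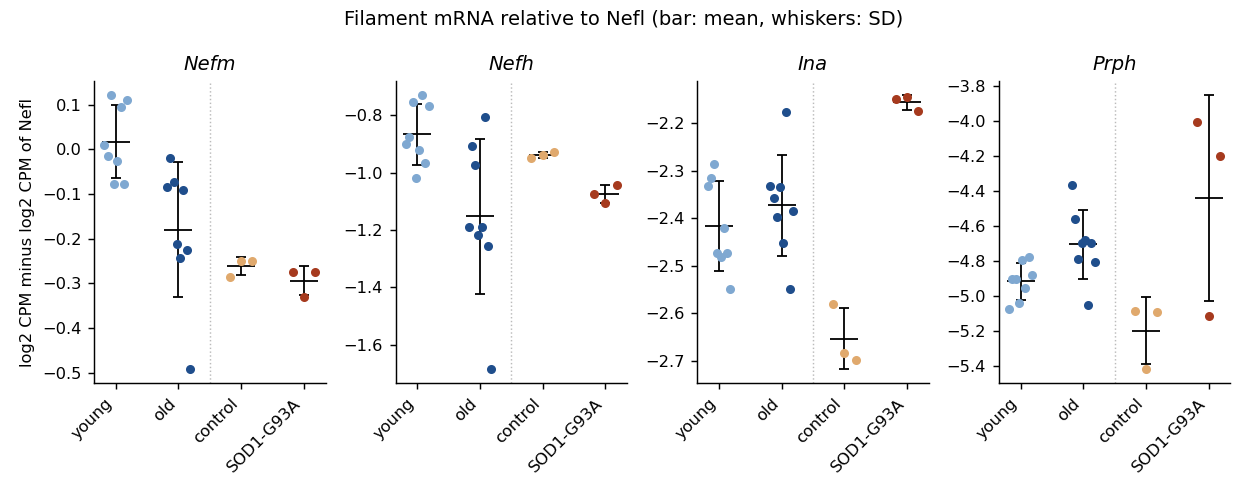
Log2 CPM of Nefm, Nefh, Ina and Prph minus log2 CPM of Nefl (y axis, a separate range in each panel) in each library of the 4 groups (x axis), with group means as bars and SDs as whiskers. For Nefm 6 and for Nefh 5 of the 8 old libraries lie below all young libraries, with old library 8 lowest, and the 3 SOD1-G93A libraries lie close together above the controls for Ina.

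The filament mRNAs were next set beside other neuronal mRNAs, by subtracting the mean log2 CPM of 15 genes, here called pan-neuronal, in the same library. That mean was 8.60 in young, 8.48 in old, 8.71 in control and 8.11 in SOD1-G93A mice. The list also holds genes of transmitter subtypes, namely Gad1, Slc32a1, Slc6a5 and Slc17a6. Their log2 fold changes in ALS were -0.31 (not called), -0.74, -1.04 and -0.82. In aging, Nefm remained lower than in young mice by 0.29 on the log2 scale, with no overlap between the groups. How many of all genes would not overlap on this relative measure was not computed. The exact permutation p for Nefm was 0.000155, the smallest that 12870 arrangements of 8 and 8 mice can give, and it was 0.000777 adjusted over the 5 members. Nefh was lower by a log2 value of 0.37 (difference -0.37, adjusted p = 0.00466) and Nefl by less (difference -0.09, adjusted p = 0.0119), both by the same exact permutation test. For Ina the difference was -0.05 (adjusted p = 0.234) and for Prph 0.12 (adjusted p = 0.164). Without old library 6, the differences for Ina of -0.07 (adjusted p = 0.0205) and for Prph of 0.17 (adjusted p = 0.0194) passed the threshold, in opposite directions.

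In ALS, Nefl was lower relative to the pan-neuronal genes by a log2 difference of -0.82, Nefm by -0.86, Nefh by -0.96 and Ina by -0.33. The 3 SOD1-G93A mice were below all 3 controls for these 4 members (exact permutation p = 0.1 for each, the smallest possible). In plain CPM, 24.7% of all genes tested were lower without overlap, and the share on the relative measure was not computed. For Prph the difference was -0.07, with overlapping groups (exact permutation p = 0.9). The values of Prph were -2.35, -3.27 and -2.52 in SOD1-G93A mice, against -2.64, -2.80 and -2.50 in control mice, so library 2 again lay apart. Leaving out single libraries gave differences for Prph from -0.25 to 0.21.

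**Figure D4:**
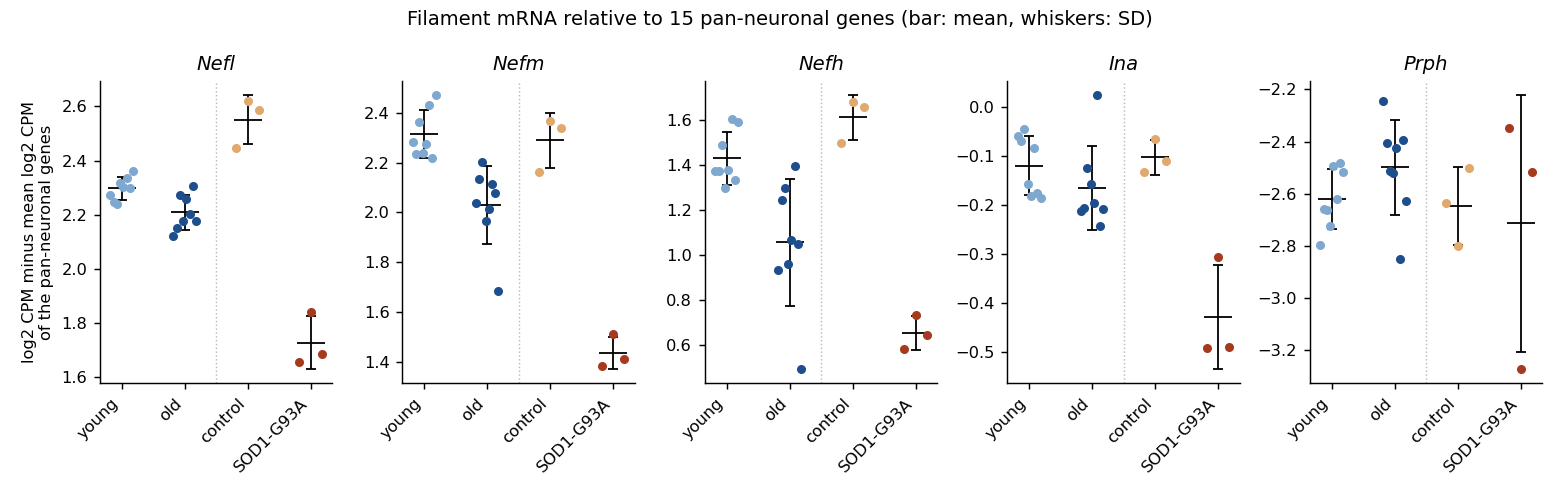
Log2 CPM of each filament gene minus the mean log2 CPM of 15 pan-neuronal genes (y axis, a separate range in each panel) in each library of the 4 groups (x axis), with group means as bars and SDs as whiskers. Nefm separates old from young libraries, and Nefl, Nefm, Nefh and Ina, but not Prph, separate SOD1-G93A from control libraries.

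The pan-neuronal genes themselves were called lower in 6 of 15 cases in aging and 12 of 15 in ALS, and none was called higher. Over all genes tested, 13.5% were called higher in aging and 18.4% in ALS, beside the 12.9% and 15.5% called lower. The pan-neuronal medians of the log2 fold change were -0.13 and -0.53, where the medians over all genes tested were -0.00273 and 0.00306. Elavl3, a neuronal RNA-binding protein, fell in both comparisons (-0.44 and -0.30). Rbfox3, which encodes NeuN, was at -0.04 in aging and fell in ALS (-0.74). Snap25, of the synaptic release machinery, was at -0.13 in aging (adjusted p = 0.226) and fell in ALS (-0.85).

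Among 12 motor neuron markers, 1 was called lower in aging and 7 lower and 1 higher in ALS, with median log2 fold changes of -0.06 and -0.90. Of all genes tested, 12.9% were called lower in aging, and 15.5% lower and 18.4% higher in ALS. Chodl, a marker of fast motor neurons, fell in both (-0.23 and -3.16). Slc5a7, the choline transporter, was at -0.13 in aging (adjusted p = 0.206) and fell in ALS (-1.08), as did Slc18a3, the vesicular acetylcholine transporter (0.02 and -0.87). Gfra1 was the marker called higher in ALS (0.44, adjusted p = 0.0316, edgeR's quasi-likelihood test). Chat, encoding choline acetyltransferase, was called in neither comparison (-0.13 and -0.67, adjusted p = 0.511 and 0.0708, same test). The summed level of the list was 462 to 513 CPM in young mice, 440 to 528 CPM in old, 447 to 487 CPM in control and 307 to 349 CPM in SOD1-G93A mice. No marker was at 0. The part of cell number in the filament results was not tested.

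Because Prph is also typical of cells outside the cord, markers of sensory ganglion neurons and Schwann cells were measured. Of 12 ganglion markers, 11 were in the tables and 3 and 5 were abundant enough to be tested in aging and ALS. Mrgprd was at 0 in every library, and Prdm12 had at most 3 counts in any library. The ganglion list summed to 104 to 129 CPM in young, 87.1 to 115 CPM in old, 104 to 115 CPM in control and 64.4 to 80.5 CPM in SOD1-G93A mice. Most of this was Rgs4, which cord neurons also express and which fell in both comparisons (-0.22 and -0.72). Avil, the advillin gene, rose in ALS from 0.533 ± 0.199 to 3.27 ± 1.06 CPM (n = 3 and 3, log2 fold change 2.59, adjusted p = 0.00258). The 10 Schwann cell markers summed to 138 to 160 CPM in young, 153 to 228 CPM in old, 147 to 162 CPM in control and 183 to 413 CPM in SOD1-G93A mice, with Pmp22 the most abundant and none at 0. Of those tested, 1 of 4 was called lower and 1 higher in aging, and 2 of 7 were called higher in ALS. Among all genes, 12.9% were called lower and 13.5% higher in aging, and 18.4% higher in ALS. The part of nerve roots in the Prph values was not tested.

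Microglia markers moved in the opposite direction to the triplet genes. Of 11 microglia markers, 10 were called higher in aging and 9 in ALS, and none lower. Their sum was 377 to 421 CPM in young, 637 to 1092 CPM in old, 384 to 470 CPM in control and 1606 to 3130 CPM in SOD1-G93A mice. Old library 6, with the highest triplet levels among old mice in TMM-scaled CPM but not in FPKM for Nefl and Nefm, had the lowest microglia sum of that group in CPM. Of 8 astrocyte markers, 3 were called higher and 1 lower in aging and 4 higher in ALS. Both glial lists stand beside 13.5% higher and 12.9% lower of all genes tested in aging, and 18.4% and 15.5% in ALS. The part of added glial RNA in the filament results was not tested.

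The other intermediate filament genes, of glia, immature cells and the nucleus, contrasted with the neuronal members. Of 10 tested in aging, 4 were called higher and none lower, and of 11 tested in ALS, 5 were called higher and none lower. Higher calls made up 13.5% of all genes tested in aging and 18.4% in ALS, and lower calls 12.9% and 15.5%. Vim, encoding vimentin, rose in both (log2 fold changes 2.29 and 3.79), as did Gfap, the astrocyte filament (0.69 and 2.40), and Nes, encoding nestin (1.03 and 1.91). Lmna, encoding the nuclear lamins A and C, rose less (0.24 and 0.51). In SOD1-G93A mice, Gfap was at 9258 ± 2755 CPM, against 1758 ± 355 CPM in control mice.

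Transport and membrane skeleton genes of the axon moved in the same direction as the triplet. Of 13 genes for slow axonal transport and spectrin, 8 were called lower in aging and 11 in ALS, none was called higher, and the medians were -0.20 and -0.49. For comparison, 12.9% of all genes tested were called lower in aging and 15.5% in ALS. Kif5a, Kif5b and Kif5c encode the kinesin heavy chains that carry neurofilaments along axons. Kif5a fell by 0.32 and 0.83 on the log2 scale, Kif5b by 0.34 and 0.49, and Kif5c by 0.20 and 0.86. Sptbn1, a spectrin, fell by 0.24 and 0.29, and Ank2, an ankyrin, by 0.29 in aging, with a value of -0.22 in ALS (adjusted p = 0.0904).

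Microtubule genes of the axon were called in both directions in aging, as were genes over the whole fit. Of 18 tested, 3 were called lower and 5 higher in old mice, whereas 9 were called lower and 2 higher in SOD1-G93A mice. Over all genes tested, 12.9% were called lower and 13.5% higher in aging, and 15.5% and 18.4% in ALS. Map1a and Map2, which bind and space microtubules, fell in both comparisons (-0.22 and -0.78 for Map1a, -0.30 and -0.59 for Map2). Tubb3, the neuronal beta-tubulin, rose in aging (0.13) and fell in ALS (-0.60), and Tuba1b, an alpha-tubulin, did likewise (0.26 and -0.47). Map1b was at -0.18 in aging (adjusted p = 0.0658) and fell in ALS (-0.79).

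Genes that modify or bind the filaments were mixed. Of 14 neurofilament kinases and phosphatases, 3 were called lower and 2 higher in aging, and 7 lower and none higher in ALS. The shares over all genes tested were 12.9% lower and 13.5% higher in aging, and 15.5% and 18.4% in ALS. Mapk10 (-0.18 and -0.70) and Gsk3b (-0.15 and -0.53), kinases that phosphorylate neurofilament tails, fell in both. Cdk5r2, an activator of the tail kinase Cdk5, was at -0.10 in aging (adjusted p = 0.179) and fell in ALS (-0.66). Mapk3, which encodes ERK1, rose in aging (0.31) and was at 0.17 in ALS (adjusted p = 0.208).

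Of 11 linkers and turnover factors, 4 were called lower and 2 higher in aging, and 3 lower and 2 higher in ALS. All genes tested gave 12.9% lower and 13.5% higher in aging, and 15.5% and 18.4% in ALS. Dst, encoding the linker dystonin, fell in both (-0.31 and -0.37), as did Trim2, a ubiquitin ligase that acts on NEFL (-0.22 and -0.62). Hspb1, a small heat shock protein that binds intermediate filaments, rose in both (1.16 and 3.84). Capn1, the protease calpain-1, rose in aging (0.21) and was at -0.13 in ALS (adjusted p = 0.349).

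Of 8 genes whose proteins bind neurofilament mRNAs, 3 were called lower in aging, and 1 lower and 1 higher in ALS. Among all genes tested, 12.9% were called lower in aging, and 15.5% lower and 18.4% higher in ALS. Tardbp, encoding TDP-43, fell by 0.19 in aging and was at -0.01 in ALS (adjusted p = 0.947). Arhgef28, the mouse gene of RGNEF, fell by 0.36 in aging and was at -0.24 in ALS (adjusted p = 0.0985). Elavl4, encoding the neuronal protein HuD, fell in both (-0.15 and -0.83).

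**Figure D5:**
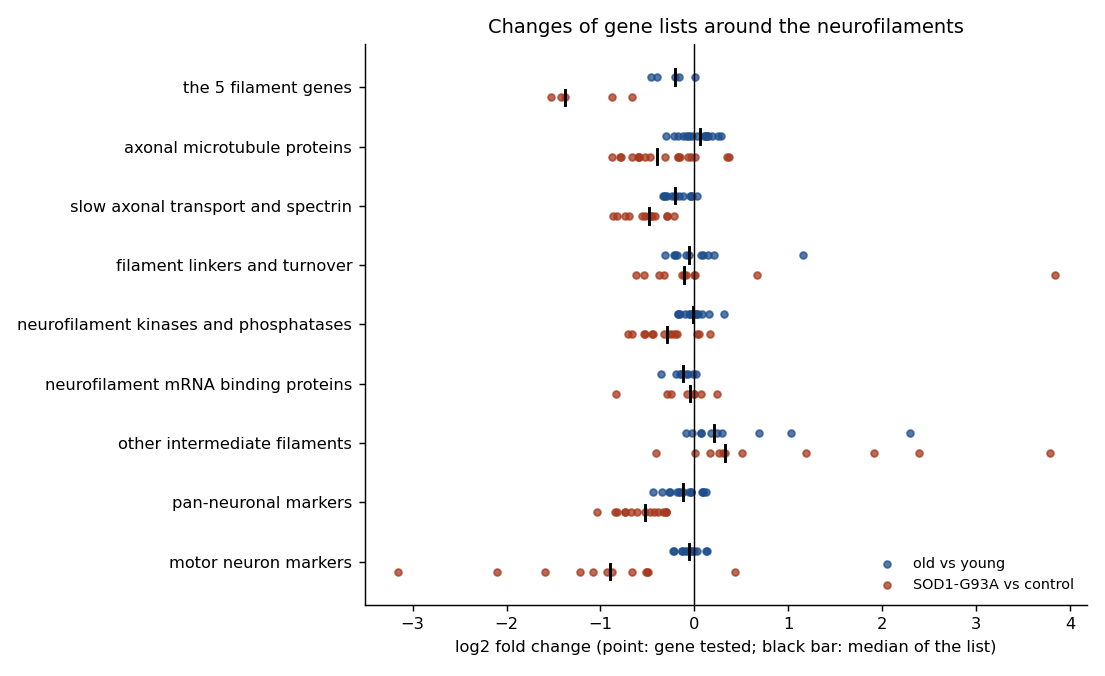
Log2 fold changes (x axis) of the genes tested in 9 lists (y axis), in old against young mice in blue and SOD1-G93A against control mice in red, with the median of each list as a black bar. The filament genes have a median of -0.21 in aging and -1.38 in ALS, while the other intermediate filaments have medians above 0 in both.

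Genes that varied most like each member from mouse to mouse were found with Pearson's r of log2 CPM, centred on the group means, over the 16 aging libraries. These values are a description, and libraries that differ in composition move many genes together. Nefm and Nefh were each other's closest gene of all tested (r = 0.96). Next came Map7d1 (0.94), Nipbl (0.92), Jakmip2 (0.91) and Akap12 (0.91) for Nefm, and Map7d1 (0.96), Rabl6 (0.94), Sparcl1 (0.92) and Akap12 (0.90) for Nefh. Nefl was less tied to them, with r = 0.67 to Nefm and 0.65 to Nefh, and its closest genes were Srsf12 (0.91), Hdgf (0.89), Ppp2r2d (0.89), Zbtb8os (0.88) and Pmepa1 (0.88). Ina was closest to the neuronal gene Rbfox3 (0.94), then to Cplx2 (0.93), Atp6v1g2 (0.92), Ebf1 (0.92) and Pcp4 (0.92), with r = 0.59 to 0.65 to the triplet genes. Prph stood apart from the family, with r from -0.48 to Ina to 0.16 to Nefm, and was closest to Ptrh2 (0.91), Nck2 (0.80), Arhgap31 (0.80), Slc12a8 (0.80) and Cpxm1 (0.80).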

How the data were processed

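Whole spinal cords of 22 C57BL/6 mice were sequenced. The authors aligned reads with STAR 2.5.3a and summarized them with RSEM 1.3.0 (SAMtools 1.3 in their processing notes) on Ensembl 88 and mm10. They deposited expected counts, already whole numbers and not normalized between libraries, and log2 values, log2(FPKM + 1), for 21995 genes. The strand setting is not given in the sources used here. All sample columns were used. They name the group but no replicate number, and no pair of libraries within a group agreed within sampling noise.

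Each comparison was fitted separately with edgeR 4.0.16 (R 4.3.3) on the counts, with filterByExpr (minimum count 10, minimum total 15), TMM factors and the quasi-likelihood test, and p-values were adjusted by Benjamini-Hochberg over all genes in the fit. A call is an adjusted p under 0.05. SEs came from this fit, CPM were scaled by TMM, and log2 CPM had a prior count of 2. FPKM were back-calculated from the deposited log2 values. Interactions used a fit of all 22 libraries. Ratios were tested by exact two-sided permutation over mice (scipy 1.17.1). Alternatives were DESeq2 1.42.0, limma 3.58.1 on the log2 values, other scalings, filters and thresholds, GC and length offsets (loess span 0.3), a Y-linked covariate in ALS and each library left out.

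The members and the 13 gene lists (158 of 159 genes in the tables) were chosen with earlier results of these data known. Genes named are the members, Sod1, up to 4 genes per list with the smallest p in either comparison and the most abundant one, and the 5 genes most like each member. Not every gene the rule allows is named, and Chat, Gfra1, Gad1, Slc17a6, Slc6a5, Mrgprd and Prdm12 are named outside it. Positions and transcripts are from GENCODE M21. On simulated data, 82% of genes changed by 0.5 on the log2 scale and 97.9% of those changed by 1 were recovered with the aging design (13556 genes), and 20% and 76.8% with the ALS design (14274 genes). Unchanged genes made up 6.35% and 9.43% of the calls.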

Additional observations from a re-analysis of the deposited data

Results flagged for a closer look

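In 8 old mice, the Ina level of old library 6, 410.6 CPM, lay far from the others, which ranged from 297 to 340 CPM. The same library stood out for Ina relative to the pan-neuronal genes, at a log2 value of 0.026, where the other old mice ranged from -0.24 to -0.12. Old library 8 stood out for Nefm relative to the pan-neuronal genes, at 1.68 on the log2 scale against 1.97 to 2.20 in the other old mice. These are 3 of 28 groups of values examined for a sample far from the rest by Dixon's test, which chance alone flags in about 1 of 20.

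The change in SOD1-G93A mice differed from the change in old mice for every member in the test of the difference itself (edgeR's quasi-likelihood test over all 22 libraries). On the log2 scale the ALS change minus the aging change was -1.20 for Nefl, -1.05 for Nefm, -1.08 for Nefh, -0.75 for Ina and -0.69 for Prph, and the adjusted p ranged from 5.19e-06 to 0.001. That fit shared a single estimate of spread per gene between both experiments, so these adjusted p may understate the spread between ALS mice.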

How the results depend on the processing

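With the added limit of a log2 fold change beyond 1, the members called were 0 of 5 in aging and 3 of 5 in ALS. Over all genes tested, 0.044% and 1.2% were called lower with this limit. Ina in aging, at an adjusted p of 0.0503, passed the threshold with DESeq2 (log2 fold change -0.16, adjusted p = 0.0387), RLE factors (-0.16, 0.0496), a minimum of 10 counts in all libraries (-0.16, 0.0493), no low-count filter (-0.17, 0.046), limma on log2(FPKM + 1) (-0.17, 0.0186), and GC and length offsets (-0.25, 0.0124), but not with upper-quartile factors (-0.14, 0.0714) or in one fit of all libraries (-0.16, 0.163). Leaving out each library gave log2 fold changes for Ina in aging from -0.22 to -0.15. Prph in aging, near 0, changed sign with no filter (-0.0036), limma (-0.0022) and GC and length offsets (-0.12, adjusted p = 0.132), and ranged from -0.036 to 0.028 with each library left out. It was not called in any of them. Relative to the pan-neuronal genes, leaving out each library gave -0.073 to -0.035 for Ina and 0.085 to 0.17 for Prph in aging. The causes of these shifts were not tested.

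With each library left out, 3 to 4 members were called in aging, 5 in ALS and 5 in the interaction. Among all genes tested, those called lower in aging ran from 1477 of 13686 to 2200 of 13745. In ALS they ran from 715 of 14528 without SOD1-G93A library 3 to 3172 of 14584 without library 2. In the interaction they ran from 1306 of 14602 to 2727 of 14636. In ALS, Nefl ranged from -1.64 to -1.22, Nefm from -1.66 to -1.27, Nefh from -1.76 to -1.37, Ina from -1.15 to -0.73 and Prph from -0.74 to -0.56. GC and length offsets moved the median of all genes in ALS to -0.12, and relative to it the members were at -1.42, -1.40, -1.47, -0.93 and -0.71 in the order Nefl, Nefm, Nefh, Ina and Prph. All 5 members were called in ALS with a Y-linked covariate, where 1815 of 14386 genes tested were called lower. No paired analysis was possible because the columns carry no replicate numbers, so no replicate block was fitted.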

Other observations

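Oligodendrocyte genes, which do not encode filaments but wrap the same axons, were measured in the same libraries. Of 9 markers, 4 were called lower and 1 higher in aging, and 1 higher and none lower in ALS. The whole fits had 12.9% of genes lower and 13.5% higher in aging, and 15.5% and 18.4% in ALS. Mbp, encoding myelin basic protein, rose in aging (log2 fold change 0.16, adjusted p = 0.0383). Mog fell in aging (-0.31), and Cldn11, of the myelin tight junction, fell in aging (-0.23) and rose in ALS (0.71).

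Astrocyte genes divided as well. Aqp4, the water channel of astrocyte endfeet, was at -0.08 in aging (adjusted p = 0.32) and rose in ALS (1.40). Slc1a2, the main glutamate transporter, was at -0.08 in aging (adjusted p = 0.332) and 0.07 in ALS (adjusted p = 0.679). Gja1, encoding connexin 43, fell in aging (-0.23) and rose in ALS (0.54). Egr2, a transcription factor of Schwann cells that activated myeloid cells also express, rose in ALS from 0.196 ± 0.032 to 6.84 ± 3.11 CPM (n = 3 and 3, adjusted p = 0.000339). The control level is near the floor, since 3 counts equal 0.227 to 0.281 CPM in control libraries, so the size of the rise is uncertain.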
